A study of Homo sapiens with 4 samples.

Results

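PFKFB2, PFKFB3, PFKFB4 and TIGAR encode enzymes that make or break down fructose-2,6-bisphosphate. They are 4 of the 34500 genes measured, and were chosen by name from the GENCODE transcript-to-gene map, with their change after TGF-β1 within each replicate number already in view. That contrast therefore helped to choose them. Their values in it are given here as a description, without a test. All 4 passed the filter on low counts, which left 14774 genes. The fourth gene of the PFKFB family, PFKFB1, did not pass it.

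The cells were MCF10A, an immortalised human breast epithelial line that does not form tumours, carrying a scramble shRNA in every library, a hairpin meant to have no target. The control group was 2 libraries at 0 h without TGF-β1. The treated group was 2 libraries taken 1.5 h after TGF-β1 was added at 5 ng/ml. Both groups grew in medium with 20 ng/ml EGF, 100 ng/ml cholera toxin, 10 μg/ml insulin, 500 ng/ml hydrocortisone and 5% horse serum. The labels speak of biological duplicates and do not say whether a replicate number marks a shared day, so p-values measure the spread between these libraries. The estimated counts per library ran from 35737659 to 40792300.

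Fructose-2,6-bisphosphate is the strongest known activator of phosphofructokinase-1 (PFK-1), the enzyme that commits glucose to glycolysis, and it inhibits fructose-1,6-bisphosphatase, which runs the step backwards. Each PFKFB protein carries a kinase domain that makes this signal molecule and a phosphatase domain that removes it. The balance differs between the family members, and PFKFB3 is strongly tilted towards the kinase. TIGAR has only a phosphatase domain, lowers fructose-2,6-bisphosphate and thereby favours the pentose phosphate pathway.

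PFKFB3 has several annotated starts, and its transcripts are described below by start. That split was chosen after seeing the data and has no test. The gene lies on chromosome 10 (6144934 to 6254644, plus strand, GRCh38). Transcript PFKFB3-205 begins at 6144934 and transcript PFKFB3-203 begins at 6202931, 57997 bases further on. Both have 15 exons and the same 4077 bases after the first exon, so only the first exon separates them. The coding starts are shown because they are the part of the message that differs. Capitals mark the coding bases of the first exon, and lower case marks the first 30 bases of the shared second exon:

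PFKFB3-205: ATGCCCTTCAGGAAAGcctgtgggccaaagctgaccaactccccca

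PFKFB3-203: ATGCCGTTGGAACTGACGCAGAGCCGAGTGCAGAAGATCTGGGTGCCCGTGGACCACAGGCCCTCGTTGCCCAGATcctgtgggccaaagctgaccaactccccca

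The first exon contributes 16 coding bases to PFKFB3-205 and 76 to PFKFB3-203, so the coding sequences are 1500 and 1560 bases long. They therefore encode different amino-terminal ends on the same kinase and phosphatase domains. Of the 31-base words in PFKFB3-205, 78 occur in no PFKFB3 transcript with another first exon. In PFKFB3-203, 406 occur in no PFKFB3 transcript without the downstream first exon. The words were counted in GENCODE 29 sequences, where PFKFB3-202 and PFKFB3-215 have other lengths than in the deposited values. Going by these sequences, the estimated split between the starts rests on reads over these words.

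**Figure D1:**
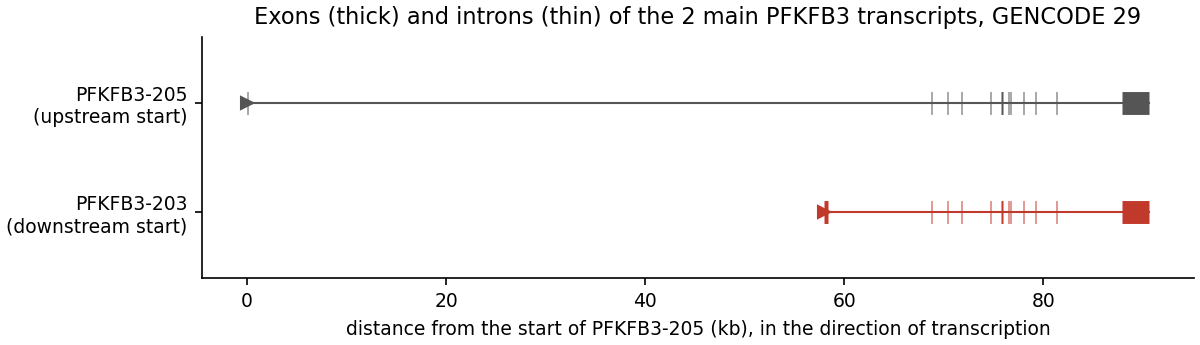
Exons (thick blocks) and introns (thin lines) of PFKFB3-205 and PFKFB3-203 against the distance in kb from the start of PFKFB3-205; arrowheads mark the starts. The starts lie 57.997 kb apart and all exons after the first coincide.

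RefSeq lists a promoter window (250 bases before to 50 after the start) for each of these starts, and they are printed because their transcripts differ in these libraries. Capitals mark ACGTG, the core of the site read by hypoxia-inducible factors, and CAGAC, a short element bound by SMAD3 and SMAD4, on either strand. The upstream window is chr10:6144671-6144970 and the downstream window is chr10:6202682-6202981, both on the plus strand of GRCh38:

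PFKFB3 upstream: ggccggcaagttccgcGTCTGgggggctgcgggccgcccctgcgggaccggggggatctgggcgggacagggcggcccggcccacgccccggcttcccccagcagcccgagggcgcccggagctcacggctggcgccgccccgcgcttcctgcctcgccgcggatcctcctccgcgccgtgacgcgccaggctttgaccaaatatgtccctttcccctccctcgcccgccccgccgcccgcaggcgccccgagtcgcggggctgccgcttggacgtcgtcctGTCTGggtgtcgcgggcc

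PFKFB3 downstream: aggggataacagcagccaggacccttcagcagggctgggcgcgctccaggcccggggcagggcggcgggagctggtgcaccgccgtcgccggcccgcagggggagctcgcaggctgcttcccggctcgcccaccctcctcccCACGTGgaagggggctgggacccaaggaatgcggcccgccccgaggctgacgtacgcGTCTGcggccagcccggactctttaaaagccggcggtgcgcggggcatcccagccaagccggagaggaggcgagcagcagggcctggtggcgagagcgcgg

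The downstream window held the palindrome CACGTG 108 bases before the start, which contains the hypoxia core on both strands. The SMAD element stood once in it, 51 bases before the start. The upstream window held the SMAD element at 2 places and no hypoxia core. Over 35116 RefSeq promoter windows of 300 bases, 21.4% held the hypoxia core, 7.26% the palindrome and 45.3% the SMAD element.

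Other motifs were searched on both strands in the same way. TGANTCA, the site of AP-1, was in neither PFKFB3 window and in 7.71% of all windows. The core of the site of cAMP-responsive factors, TGACG, stood once in each, against 24.6% of all windows. The SP1 box, GGGCGG, occurred 6 times upstream and 2 times downstream, and 45.0% of all windows held it. The windows had 78.3% and 74.3% G and C, with a median of 58.7% over all windows. A match describes the letters and is not a binding site.

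PFKFB3, the kinase-tilted enzyme, was the member whose level differed with TGF-β1. It stood at 36.5 and 31.6 CPM (counts scaled by TMM to a common library size) in control replicates 1 and 2. After TGF-β1 it stood at 119 and 99.3 CPM. Both treated libraries lay well above both controls. The group means were 34.0 ± 3.51 and 109 ± 14.0 CPM (SD, n = 2 libraries each, here and below), a ratio of 3.21. Within replicates 1 the ratio was 3.26 and within replicates 2 it was 3.15, so the libraries of either number gave nearly the same size. The log2 fold change was 1.68 ± 0.16 (SE), with 1.54 to 1.82 when each library was left out. This contrast helped to choose the members, so their SEs, ranges and ratios in it are descriptive and not a test. Per length, in TPM (the share of all transcripts in a library, corrected for length), the gene was at 15.2 and 13.3 in the controls and at 44.1 and 35.9 after TGF-β1. Of 6 fibroblast markers 3 were tested, and 1 of these also had both treated libraries above both controls. Of 11 mammary epithelial markers, 1 lay above both controls in this way and 1 below. Among all tested genes the shares were 7.87% above and 8.34% below. The fibroblast marker was COL1A1, a collagen gene, at 3.90 and 2.59 CPM in the controls and at 8.74 and 4.90 CPM after TGF-β1. The other tested fibroblast markers, PDGFRB and DCN, had log2 fold changes of -0.30 and 0.03. COL1A2, COL3A1 and LUM were below the filter. The part of COL1A1 in the PFKFB3 result was not tested.

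The other 3 members overlapped between the groups. PFKFB2, the form first known from heart and phosphorylated by AKT, was at 58.0 and 34.4 CPM in control replicates 1 and 2 and at 54.5 and 30.9 CPM after TGF-β1. Its log2 fold change was -0.11 ± 0.39 (SE), and its values followed the replicate number far more than the treatment. PFKFB4, a form known to be induced by hypoxia in many cell types, was at 10.1 and 7.999 CPM in the controls and at 10.2 and 8.72 CPM after TGF-β1, with a log2 fold change of 0.07 ± 0.21 (SE). TIGAR was at 31.8 and 31.9 CPM in the controls and at 32.9 and 30.4 CPM after TGF-β1. Its log2 fold change was -0.01 ± 0.12 (SE), the smallest of the 4. Both treated libraries lay above both controls in 1 of the 4 members. They lay below both controls in 0 members. Over all 14774 tested genes the shares were 7.87% above and 8.34% below, and since the contrast helped to choose the members nothing is read from this. At least 2-fold higher values within both replicate numbers were found in 1 member and in 0.738% of tested genes.

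**Figure D2:**
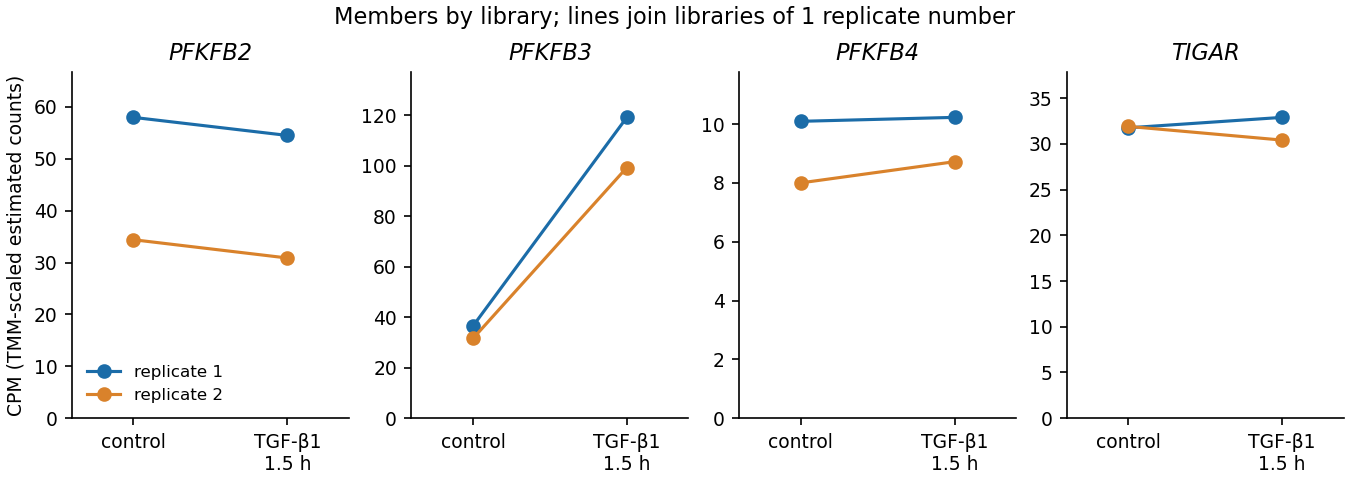
CPM of each member (vertical axis, TMM-scaled estimated counts, starting at 0) in the control and TGF-β1 libraries; lines join libraries of the same replicate number. PFKFB3 goes from 36.5 and 31.6 to 119 and 99.3 CPM, while the lines of the other 3 members are nearly flat and those of PFKFB2 lie far apart.

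The higher PFKFB3 level came with a different make-up of its transcripts. Summed over the 10 annotated transcripts that begin with the downstream first exon, the estimated counts were 138 and 225 in control replicates 1 and 2. After TGF-β1 they were 2536 and 1778. The upstream transcript PFKFB3-205 had 1231 and 854 counts in the controls and 2063 and 1596 after TGF-β1. The treated libraries lay above both controls for either start, by very different factors.

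On the TPM scale the downstream transcripts were at 2.49 and 2.50 in the controls and at 21.8 and 16.6 after TGF-β1, a ratio of means of 7.71. In control replicate 1, 2.40 of the 2.49 TPM was PFKFB3-202, whose deposited length is shorter than in GENCODE 29. The nearness of the control values in TPM, and the TPM ratios here, depend on that length. On the CPM scale the controls were at 3.49 and 6.14. The ratio of means on that scale was 12.1, with 18.6 within replicates 1 and 8.38 within replicates 2. The upstream transcript was at 10.4 and 7.71 TPM in the controls and at 17.8 and 14.5 TPM after TGF-β1, a ratio of 1.78 (1.82 on the CPM scale). The downstream start was the minor one in both controls and the larger one in both treated libraries. Its TPM was 0.238 and 0.324 times that of the upstream start in the controls, and 1.23 and 1.14 times that after TGF-β1. Of the gain in CPM, 74.3% in replicates 1 and 67.0% in replicates 2 was in transcripts with the downstream first exon. These splits are part of the contrast that chose the gene and have no test.

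**Figure D3:**
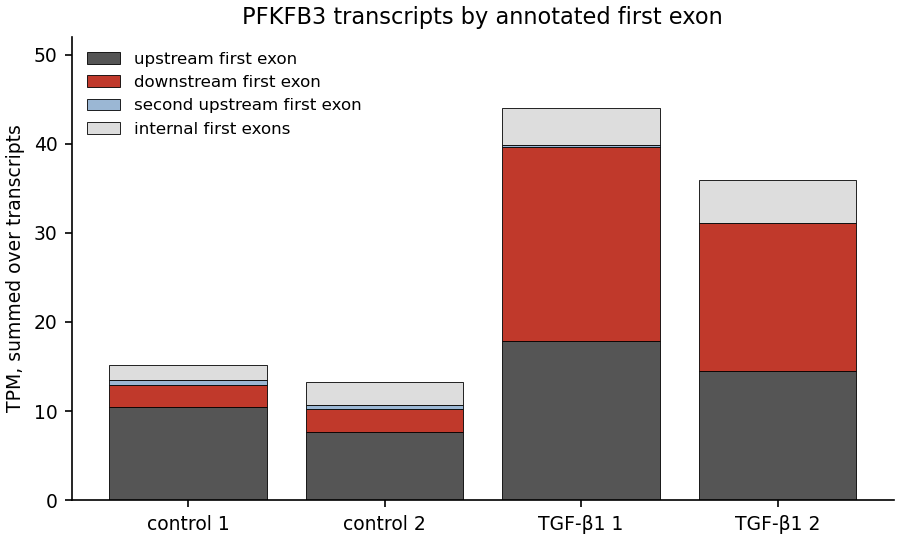
PFKFB3 TPM in each library (vertical axis), stacked by the annotated first exon of the transcripts. The downstream first exon accounts for 2.49 and 2.50 TPM in the controls and for 21.8 and 16.6 TPM after TGF-β1, and the upstream first exon for 10.4, 7.71, 17.8 and 14.5 TPM in the same order.

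Single transcripts with the downstream first exon were less stable than their sum. PFKFB3-203 took 11.4 counts in control replicate 1 and 176 in control replicate 2, and 2387 and 1640.2 after TGF-β1. PFKFB3-202, which begins at 6202900, took 127 and 5.03e-05 counts in the controls and 81.2 and 97.4 after TGF-β1. The deposited tables give PFKFB3-202 a length of 1964 bases, against 4524 in GENCODE 29, so in control replicate 1 its 127 counts stand for 2.40 TPM. PFKFB3-201, PFKFB3-204, PFKFB3-209 and PFKFB3-216 each stayed at or under 0.707 TPM in every library. PFKFB3-215, from another first exon at 6146316 in GENCODE 29, had 61.6 and 50.3 counts in the controls and 22.3 and 0 after TGF-β1. Its deposited length is 4271 bases, against 2094 in GENCODE 29. The fragments that begin inside the gene, PFKFB3-206, PFKFB3-207, PFKFB3-208, PFKFB3-211 and PFKFB3-213, together held 20.3 and 27.4 counts in the controls and 38.9 and 52.6 after TGF-β1.

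PFKFB2 lies on chromosome 1 (207034366 to 207081024, plus strand) and was read mostly as PFKFB2-202. This transcript held 69.7% and 63.2% of the gene's TPM in the controls and 67.6% and 62.4% after TGF-β1. The next coding form, PFKFB2-201, held 11.3% and 10.1% in the controls and 8.81% and 7.84% after TGF-β1. They end in different exons, and the ends are shown because the longer one carries the carboxy-terminal tail that AKT is known to phosphorylate. Lower case marks the last 30 shared coding bases, and capitals mark the coding bases that belong to each form:

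PFKFB2-202: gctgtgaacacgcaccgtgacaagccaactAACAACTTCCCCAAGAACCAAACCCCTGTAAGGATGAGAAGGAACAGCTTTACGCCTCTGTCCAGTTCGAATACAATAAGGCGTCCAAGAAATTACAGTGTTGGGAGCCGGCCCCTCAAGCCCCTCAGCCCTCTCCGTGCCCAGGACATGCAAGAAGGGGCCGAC

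PFKFB2-201: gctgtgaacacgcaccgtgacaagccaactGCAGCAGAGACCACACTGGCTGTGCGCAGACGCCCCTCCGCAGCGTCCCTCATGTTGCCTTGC

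The own coding end is 165 bases in PFKFB2-202 and 63 bases in PFKFB2-201. The longer form was the more abundant in all 4 libraries. PFKFB2-203, PFKFB2-204, PFKFB2-205, PFKFB2-206 and PFKFB2-208 were short or non-productive forms, none above 1.92 TPM in any library.

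PFKFB4 lies on chromosome 3 (48517684 to 48562015, minus strand). Its full-length transcript PFKFB4-201 had 3.81 and 2.99 TPM in the controls and 3.63 and 3.003 TPM after TGF-β1, nearly the same in libraries of the same number. The TPM of the gene as a whole differed more, from 4.35 and 3.55 in the controls to 6.23 and 4.34 after TGF-β1. The 567-base transcript PFKFB4-203, with 0.259 and 0 counts in the controls and 20.8 and 6.21 after TGF-β1, accounts for most of that. It was at 0.0220 and 0 TPM in the controls and at 1.81 and 0.591 TPM after TGF-β1. These are few counts on a short model. PFKFB4-211 and PFKFB4-213 were at or under 0.296 TPM throughout.

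TIGAR lies on chromosome 12 (4307763 to 4354593, plus strand). Its coding transcript TIGAR-201 had 14.4 and 14.6 TPM in the controls and 14.8 and 13.4 TPM after TGF-β1. The short non-coding form TIGAR-202, of 527 bases, had 14.2 and 11.1 TPM in the controls and 15.6 and 8.98 TPM after TGF-β1. It drew 149.7, 111, 161 and 84.5 counts in the same order, against 964 to 1126 for TIGAR-201. Its share of the gene's TPM thus comes largely from its short length. TIGAR-203, of 160 bases, had at most 2 counts in a library.

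The RefSeq promoter windows of PFKFB4 and TIGAR are printed for comparison with those of PFKFB3, with the same capitals. The first is chr3:48556754-48557053 on the minus strand and the second is chr12:4320963-4321262 on the plus strand, both of GRCh38:

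PFKFB4: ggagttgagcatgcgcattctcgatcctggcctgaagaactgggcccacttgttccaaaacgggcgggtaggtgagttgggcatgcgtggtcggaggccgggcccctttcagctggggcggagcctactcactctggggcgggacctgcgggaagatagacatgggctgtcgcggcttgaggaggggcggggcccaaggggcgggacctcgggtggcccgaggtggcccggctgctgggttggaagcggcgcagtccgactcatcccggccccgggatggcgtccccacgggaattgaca

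TIGAR: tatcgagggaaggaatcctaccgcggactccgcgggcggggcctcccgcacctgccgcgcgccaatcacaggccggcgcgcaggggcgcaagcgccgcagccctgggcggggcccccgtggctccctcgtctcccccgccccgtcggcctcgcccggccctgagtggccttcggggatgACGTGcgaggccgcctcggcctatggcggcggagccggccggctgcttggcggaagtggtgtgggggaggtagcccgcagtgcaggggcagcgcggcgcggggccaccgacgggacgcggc

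The PFKFB4 window held neither the hypoxia core nor the SMAD element and had the SP1 box at 5 places. The TIGAR window held the hypoxia core once, 71 bases before the start, overlapping the cAMP-responsive core that begins 73 bases before it. It had the SP1 box at 3 places and no SMAD element.

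Levels can be compared between genes per length. On the TPM of coding transcripts, the order in control replicate 1 was TIGAR at 14.4, PFKFB3 at 13.6, PFKFB2 at 12.1 and PFKFB4 at 3.84. In control replicate 2 it was TIGAR at 14.6, PFKFB3 at 11.4, PFKFB2 at 7.13 and PFKFB4 at 2.99. The order was the same in both controls, but the control means of TIGAR and PFKFB3 lay closer together than the 2 PFKFB3 values, and those of PFKFB3 and PFKFB2 closer than the 2 PFKFB2 values. PFKFB4 lay below the other 3 in all 4 libraries. After TGF-β1, PFKFB3 was first with 42.3 and 31.6 TPM, above TIGAR at 14.8 and 13.4, PFKFB2 at 11.5 and 5.77 and PFKFB4 at 5.63 and 3.95. PFKFB1, the form of liver and muscle, had 4, 4, 4 and 2 counts in the 4 libraries and at most 0.101 TPM.

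The PFKFB family as a whole had 29.6 and 21.6 coding TPM in the controls and 59.5 and 41.3 after TGF-β1. PFKFB3 made up 46.0% and 52.8% of this in the controls and 71.0% and 76.4% after TGF-β1. The ratio of PFKFB3 to TIGAR in coding TPM was 0.947 and 0.784 in the controls and 2.85 and 2.35 after TGF-β1. With all transcripts counted the ratios were 0.533 and 0.479, and 1.45 and 1.48. Either way the ratio was under 1 in both controls and over 1 in both treated libraries. These are levels of RNA, and protein amounts and enzyme activity were not measured.

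The rest of the pathway was read from 8 gene lists with 73 genes, 70 of them tested. edgeR's quasi-likelihood test called 0 of these 70 and 0 of all 14774 genes, 0.0% (255 genes had an unadjusted p under 0.05, 2 of them in the lists). This fit had no term for the replicate number. With the number as a block edgeR called 335 genes. DESeq2's Wald test called 90 genes, 0.458% of those with an adjusted p (0.422% higher and 0.0356% lower), and 1 of the 70. The median log2 fold change of the 70 was 0.05, against -0.01 over all tested genes, and 58 of them lay within 0.2 of 0. The share of all tested genes within that bound was not counted, so nothing is read from the 58. "Rose" is used below of genes past a Benjamini-Hochberg adjusted p of 0.05 in DESeq2's test.

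None of the 3 measured PFK-1 genes, whose product fructose-2,6-bisphosphate activates, was called by DESeq2 or edgeR. PFKP, the platelet form, was at 549 and 440.03 CPM in the controls and at 559 and 466 CPM after TGF-β1. The log2 fold changes of PFKM, PFKL and PFKP were 0.01, 0.06 and 0.05. The fructose-1,6-bisphosphatase genes FBP1 and FBP2 were below the filter, with at most 8 counts in a library.

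Of 8 genes for glucose uptake and hexokinases, 0 were called by either test. SLC2A1, a glucose transporter, was at 113 and 96.3 CPM in the controls and at 137 and 119 CPM after TGF-β1, a log2 fold change of 0.29 ± 0.15 (SE). A fit with the replicate number as a block in the model called SLC2A1 (edgeR adjusted p = 0.0292). SLC2A3, another transporter gene, was at 3.196 and 2.18 CPM and at 2.35 and 1.91 CPM. Of 13 genes for lower glycolysis and lactate, 0 were called. The largest changes were 0.16 ± 0.22 (log2, SE) for SLC16A3, a lactate exporter, and -0.21 ± 0.22 for ALDOC, an aldolase. Of 8 pentose phosphate pathway genes, the route that TIGAR favours, 0 were called, and their log2 fold changes ran from -0.12 (H6PD) and -0.11 (RPIA) to 0.10. Of 16 kinases and other regulators of the PFKFB enzymes, 0 were called. SGK1, a kinase of the AKT type, was at 55.8 and 95.1 CPM in the controls and at 35.6 and 67.8 CPM after TGF-β1, a log2 difference of -0.55 ± 0.42 (SE), and overlapped between the groups. It was at 0.639 and 0.712 times the control of the same number in replicates 1 and 2. With the replicate number as a block in the model, edgeR called it (adjusted p = 0.00334). FZR1, the activator of the ubiquitin ligase that marks PFKFB3 protein for breakdown, differed by 0.15.

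Hypoxia-inducible factors are known activators of PFKFB3 and PFKFB4, so their genes and targets were also listed. Of 8 factors and regulators, 0 were called. HIF1A was at 491 and 406 CPM in the controls and at 497 and 437 CPM after TGF-β1. EPAS1 differed by 0.28 ± 0.11 (log2, SE) and ARNT by 0.07. In the fit with the replicate number as a block, edgeR called EPAS1 (adjusted p = 0.0405). Of 14 hypoxia target genes, 1 rose and 0 fell by DESeq2, and edgeR called 0 (2 at an unadjusted p under 0.05, VEGFA and NDRG1). The gene that rose was VEGFA, the vascular endothelial growth factor, from 55.7 and 35.4 CPM to 173 and 137 CPM (DESeq2 adjusted p = 1.11e-05, edgeR adjusted p = 0.731). Both treated libraries lay above both controls in 7 of the 14 genes and below them in 1, against 7.87% and 8.34% of all tested genes. The median log2 fold change of the list was 0.13. ANGPTL4, a secreted regulator of lipoprotein lipase, was at 185 and 70.9 CPM in the controls and at 381 and 243 CPM after TGF-β1, 2.05 and 3.43 times the control of the same number (edgeR adjusted p = 1.00, DESeq2 adjusted p = 0.885). ANGPTL4 and VEGFA were the 2 of the 70 tested pathway genes that were at least 2-fold higher within both numbers. ADM, the vasodilator adrenomedullin, was at 6.87 and 9.96 CPM in the controls and at 10.7 and 18.2 CPM after TGF-β1. NDRG1, a stress-responsive gene, was at 118 and 105 CPM in the controls and at 182 and 167 CPM after TGF-β1. With the replicate number as a block in the model, edgeR called 5 of the 14 target genes. They include VEGFA, ANGPTL4, ADM and NDRG1 (adjusted p in that edgeR fit 9.92e-05, 0.00527, 0.0145 and 0.000795).

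**Figure D4:**
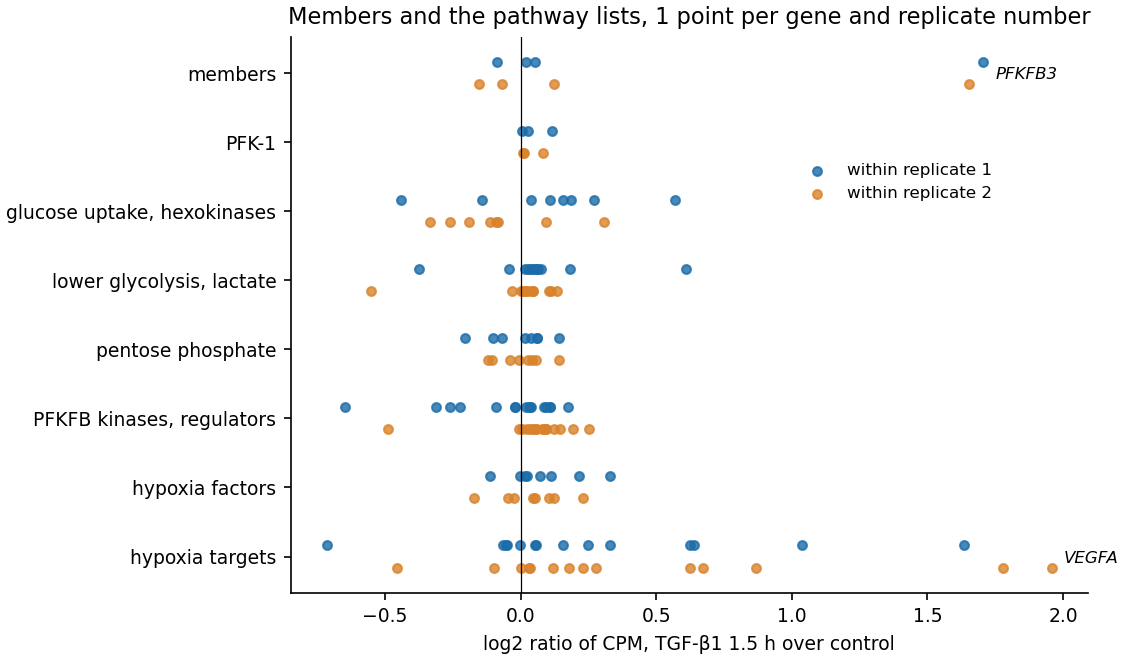
log2 ratio of CPM, TGF-β1 over control (horizontal axis), within replicates 1 (blue) and within replicates 2 (orange), with 1 point per gene; rows are the members and 7 of the lists. PFKFB3 lies at 1.71 and 1.65 and VEGFA at 1.64 and 1.96, while most other points lie near 0.

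The difference between replicate numbers was not part of the choice of the members and was tested. Libraries numbered 2 were set against those numbered 1 with the treatment in the model. If a number marks 1 culture or day, these p-values and SEs measure only the spread left within the numbers. They then do not measure how far cultures vary. The numbers differ widely in these cells. PHF8, a histone demethylase named in the labels' protocol, was at 20.2 and 20.0 CPM in the libraries numbered 1. In those numbered 2 it was at 3.88 and 3.998 CPM. All 4 libraries are labelled scramble shRNA, and why PHF8 differs between the numbers was not tested. edgeR called 44.9% of tested genes, 25.0% lower and 19.9% higher in the libraries numbered 2. DESeq2 called 25.6%, 16.3% lower and 9.32% higher. Against this background 2 of the 4 members were called by edgeR and 1 by DESeq2, all lower in number 2. Both libraries numbered 2 lay below both numbered 1 in 2 members, PFKFB2 and PFKFB4, and in 36.6% of tested genes.

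PFKFB2 had a log2 difference (number 2 minus number 1) of -0.79 ± 0.05 (SE; edgeR adjusted p = 6.33e-05, DESeq2 adjusted p = 6.72e-09). Its level in the libraries numbered 1 was 1.69 times that in number 2 among the controls and 1.77 times that after TGF-β1. Of all tested genes, 5.33% had a lower difference. Markers of the cell type also followed the number. Of 11 mammary epithelial markers edgeR called 7 lower and 1 higher in number 2, with a median log2 difference of -0.29, -1.01 for LAMB3, a laminin chain, and -0.77 for KRT17, a keratin. The 1 that was higher was TP63, by 0.34 (edgeR adjusted p = 0.00153). KRT5, KRT14 and EPCAM were not called, at -0.14, 0.13 and -0.03. The summed levels of the 11 markers were 15736 and 17116 CPM in the libraries numbered 1 and 10969.5 and 12791 CPM in those numbered 2. CD14, a marker of monocytes, was higher in number 2 by 0.61 (edgeR adjusted p = 0.000646). The part of these markers in the PFKFB2 difference was not tested. PFKFB2-202 moved with the gene, at 10.2 and 9.66 TPM in the libraries numbered 1 and at 5.87 and 5.10 TPM in those numbered 2. PFKFB2-201 did the same, at 1.65 and 1.26 against 0.934 and 0.641 TPM. The next tested gene before PFKFB2, C1orf116, which ends 1610 bases before it, had a log2 difference of -0.81 in the same comparison (edgeR adjusted p = 6.33e-05).

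PFKFB3 had a difference of -0.24 ± 0.05 (SE; edgeR adjusted p = 0.00753), which DESeq2 did not call (adjusted p = 0.0731). Without the treatment in the model its edgeR adjusted p was 0.815, and in such fits its sign turned when control replicate 2 (0.34) or TGF-β1 replicate 1 (0.83) was left out. PFKFB4 had one of -0.28 ± 0.11 (SE; edgeR adjusted p = 0.0672, DESeq2 adjusted p = 0.445) and TIGAR one of -0.05 ± 0.06 (SE; edgeR adjusted p = 0.528, DESeq2 adjusted p = 0.814). TIGAR stood at 31.8 and 32.9 CPM in the libraries numbered 1 and at 31.9 and 30.4 CPM in those numbered 2, so its levels overlapped between the numbers.

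Of the 13 genes for lower glycolysis and lactate, 8 were lower and 2 higher in number 2 by edgeR, and 7 lower and 2 higher by DESeq2, with a median log2 difference of -0.20 against 0.01 over all tested genes. LDHA, a lactate dehydrogenase, had the lowest value of the list at -0.49 ± 0.05 (SE; edgeR adjusted p = 0.000459, DESeq2 adjusted p = 1.23e-12). GAPDH and SLC16A1 were the genes that were higher, by 0.25 and 0.24. PFKFB2 lay below all 13. Whether it differs from them was not tested.

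**Figure D5:**
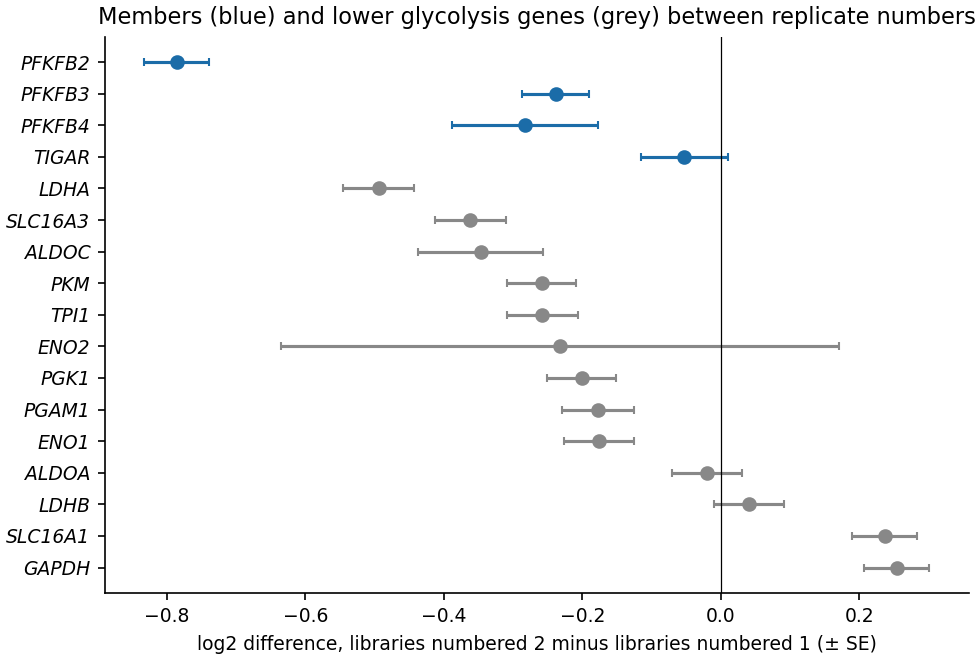
log2 difference between libraries numbered 2 and libraries numbered 1, with the treatment in the model (horizontal axis; bars are ± SE), for the 4 members (blue) and 13 genes for lower glycolysis and lactate (grey). PFKFB2 lies at -0.79 and TIGAR at -0.05, and the grey points run from -0.49 (LDHA) to 0.25 (GAPDH).

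The genes whose 4 values ran most like those of each member were found by the distance between log2 CPM values, centred per gene, over 4 libraries and 12193 other genes. For PFKFB3 they were HOXC13, a homeobox gene (distance 0.148), GATA2, a zinc-finger transcription factor (0.196), and INAVA, a regulator of innate immune signalling (0.208). HOXC13 was at 6.27 and 5.13 CPM in the controls and at 20.8 and 18.7 CPM after TGF-β1. For PFKFB2 they were BRCA1, KIF3C and NSF (0.00710 to 0.0111), for PFKFB4 TRAPPC10, SUN2 and SRP19 (0.0145 to 0.0209), and for TIGAR DENND4C, ATXN7L3B and MRPS22 (0.00995 to 0.0194). The nearest gene to PFKFB3 was farther from it than the third nearest was from each of the other members. The distances for PFKFB3 include the contrast that helped to choose the members, so nothing is read from this.

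None of the tested genes next to the members was called by edgeR or DESeq2 at 1.5 h of TGF-β1. RBM17, a splicing factor before PFKFB3, was at 53.7 and 43.7 CPM in the controls and at 55.3 and 43.7 CPM after TGF-β1. PRKCQ, a protein kinase C gene after it, was at 3.47 and 2.46 CPM and at 3.43 and 2.69 CPM. SHISA5 and COL7A1 beside PFKFB4, CCND2 and FGF23 beside TIGAR, and C1orf116 and C4BPB beside PFKFB2 were the other neighbours. C1orf116 was lower within both replicate numbers, with log2 ratios of -0.57 and -0.57. YOD1 overlaps PFKFB2 on the opposite strand and was at 67.4 and 54.0 CPM in the controls and 66.4 and 51.0 CPM after TGF-β1. PFKFB2-202 and PFKFB2-201 begin at 207053260 and 207053311, beyond the end of YOD1 at 207052980, and do not overlap it. In each library they held 89.6% to 91.3% and 5.50% to 7.03% of the gene's counts. How strand was used in the counting is not given in the sources used here. Reads within the overlap therefore cannot be told apart with certainty.

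The libraries held the markers of the labelled cell type. All 11 mammary epithelial markers were tested, with the summed levels given for the replicate numbers. Of 6 fibroblast markers COL1A1, PDGFRB and DCN were tested (summed 27.9 and 25.8 CPM in the controls and 30.8 in both treated libraries, of which DCN held 21.5 to 25.7 CPM), with COL1A2, COL3A1 and LUM at no more than 10.1 counts. Of 6 blood and endothelial markers PTPRC, CD14 and PECAM1 were tested (summed 25.9 to 42.6 CPM), mostly from CD14, and CD3E had 0 counts. SMAD7, an early TGF-β target, rose from 8.58 and 8.27 CPM to 129 and 100.1 CPM (DESeq2 adjusted p = 6.27e-47, edgeR adjusted p = 0.0888), and 5 of 7 such targets rose by DESeq2.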

How the data were processed

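RNA of 2 control and 2 TGF-β1 libraries was read as paired ends of 50 bases after ribosomal RNA depletion, per the labels' protocols, though the labels' molecule field says polyA RNA. The submitters' processing notes name kallisto and GRCh38, without a version or transcript release. Deposited values are estimated counts, TPM and lengths for each transcript, per the file headers. They give no error for how reads are split between transcripts.

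Of 173259 transcripts, 159239 (91.91%) matched GENCODE 29. Those unmatched held 2.24% to 2.38% of counts and were left out. Estimated counts were summed per gene, rounded, filtered with filterByExpr and compared with edgeR 4.0.16 in R 4.3.3 (TMM scaling, quasi-likelihood test, Benjamini-Hochberg adjustment). DESeq2 1.42.0, limma 3.58.1 on log2(TPM + 1), RLE scaling, other filters, coding transcripts alone, a replicate block and left-out libraries were alternatives. Each SE is the absolute log2 value over the root of edgeR's F. The fits were run on simulated counts with known changes. The simulated treatment comparison held no difference between replicate numbers, so it does not show how that fit performs on these data. Differences of the first exons of PFKFB3 and their alternatives were chosen after seeing the data.

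The members and lists were chosen with earlier results of these data known. Named genes were the members, their transcripts with a mean of at least 0.1 TPM, list genes called by a test or else the 2 with the largest change, PFKFB1, the PFK-1 genes, the 3 most similar genes (mean of at least 50 counts) and the nearest tested neighbours. HIF1A, NDRG1, ANGPTL4, ADM, FBP1, FBP2, LDHA, GAPDH, SLC16A1, YOD1, PHF8, KRT17, KRT5, TP63, EPCAM and the markers at low counts were added after their values were seen. Some genes are not reported here.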

Additional observations from a re-analysis of the deposited data

How the results depend on the processing

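The count of genes called at 1.5 h of TGF-β1, 0 with edgeR, was 15 without a filter, 90 with DESeq2, and 8 to 25 when each library was left out, with the lone library taken to vary like the other group. RLE scaling, at least 50 counts in 2 libraries, limma on log2(TPM + 1) and a threshold of 0.01 gave 0. With the replicate number as a block edgeR called 335 genes. The numbers are not known to pair the samples, and there are only 2 pairs. The deviations of same-numbered libraries from their group means correlated at 0.66 over 14774 genes. The main fit had no term for the number, so differences between the numbers counted as spread within its groups. Of the list genes that are not members, 0 were called by edgeR, 6 by DESeq2 and 17 with the replicate block. The block fit called SLC2A1 among the 8 genes for glucose uptake and hexokinases and SGK1 among the 16 kinases and regulators. It also called EPAS1 among the 8 hypoxia factors and regulators, and 5 of the 14 hypoxia target genes. In the lists of PFK-1, lower glycolysis and pentose phosphate genes it called 0. The count of genes that differ between replicate numbers, 6635, was 3513 with DESeq2 and 3011 to 4041 when each library was left out without the treatment in the model.

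The log2 fold change of PFKFB3, 1.68, became 1.42 with limma on log2(TPM + 1) and that of PFKFB4, 0.07, became 0.33. That alternative changes the unit and the method together, and the ratio of group means of PFKFB4 was 1.05 in CPM and 1.34 in TPM. The part of the added 1 was not tested. Leaving out each library moved the log2 fold change of PFKFB2 from -0.59 to 0.32, across 0, and that of PFKFB4 from -0.09 to 0.25. The call of PFKFB2 between replicate numbers held in all 9 alternatives. That of PFKFB3, at -0.24, ended with DESeq2 (-0.25) and without the treatment in the model (-0.25), and ran from -1.31 to 0.83 when each library was left out (0.34 without control replicate 2, 0.83 without TGF-β1 replicate 1), where the numbers compared hold unequal shares of treated libraries. The ratio of the downstream PFKFB3 start, 7.71, was 12.1 with TMM-scaled counts, and that of the upstream start, 1.78, ran from 1.55 to 2.10 when each library was left out. With 2 libraries a group, depth limits the short transcripts most: many of them rest on fewer than 50 counts.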
